A study of Rattus norvegicus with 19 samples.

Results

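The circadian clock genes described here are the negative limb and the outputs of the molecular clock in rat spinal cord cultures. The rule names 10 genes by symbol, namely Per1, Per2, Per3, Cry1, Cry2, Nr1d1, Nr1d2, Dbp, Bhlhe40 and Bhlhe41. It sets no threshold on a measured value, but the genes were chosen with earlier results of these data known. Of these, 9 were matched among the 15597 genes of the expression table, and Bhlhe41 is not analysed here. All 9 passed the filter on low values and were among the 11887 genes tested.

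The study sequenced poly(A)-enriched RNA from 19 primary cultures of ventral spinal cord, taken from wild-type Sprague-Dawley rat embryos at embryonic day 14, in which neurons and glia grow together. The polyP group (n = 5) received long-chain polyphosphate, a linear polymer of phosphate, at 100 μM for 90 min. The mutSOD1-ACM group (n = 5) received for 90 min medium conditioned by primary spinal cord astrocytes of neonatal mice that carry the SOD1 G93A transgene, a cause of inherited amyotrophic lateral sclerosis. The wtSOD1-ACM group (n = 4) received for the same time medium from mouse astrocytes expressing wild-type SOD1, and the control group (n = 5) was untreated. The conditioned media came from another species, and medium from non-transgenic astrocytes is not analysed here, so an effect of astrocyte medium as such has no reference group. All groups shared a neuronal growth medium with horse serum and chick leg extract. The labels give the culture age as 7, as 4 and as 7 to 9 days in vitro and do not give the hour of collection, so each level is a single reading of genes that can cycle.

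In mammalian cells the clock is a feedback loop in which CLOCK and BMAL1 bind E-box sequences and switch on the Per, Cry, Nr1d, Dbp and Bhlhe40 genes. PER and CRY proteins then return to the nucleus and repress CLOCK and BMAL1, the NR1D (REV-ERB) receptors repress the Bmal1 gene, and BHLHE40 (DEC1) competes for E-boxes. Per1, Per2 and Bhlhe40 also respond within hours to outside signals such as cAMP, calcium, growth factors or serum, and glia as well as neurons carry the loop.

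The E-box is the sequence through which the loop closes, and the start regions of Per2 and Bhlhe40 are shown because these are the members whose levels moved most. RefSeq start regions on the GRCr8 assembly were matched for 9 of the 10 members, with 10 windows in all, and the 250 bases before each start were searched on both strands. The motifs were the E-box CACGTG, its variant CACGTT, the D-box TTATGTAA (bound by DBP) and the cAMP response element TGACGTCA, none of which overlaps another in the windows shown. Both windows are printed 5′ to 3′ on the strand of the gene, with the motifs in capitals. The Per2 window is chr9:99496994-99497243 on the minus strand, with its D-box beginning 192 bases and its E-box variant 62 bases before the start. The Bhlhe40 window is chr4:143174200-143174449 on the plus strand, with its E-box beginning 220 bases before the start.
Per2: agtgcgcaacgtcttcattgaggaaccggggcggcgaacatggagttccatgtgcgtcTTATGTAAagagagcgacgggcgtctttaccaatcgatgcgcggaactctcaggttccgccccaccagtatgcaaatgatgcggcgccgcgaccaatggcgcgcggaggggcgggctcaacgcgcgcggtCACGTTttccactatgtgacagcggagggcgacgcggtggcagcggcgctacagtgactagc
Bhlhe40: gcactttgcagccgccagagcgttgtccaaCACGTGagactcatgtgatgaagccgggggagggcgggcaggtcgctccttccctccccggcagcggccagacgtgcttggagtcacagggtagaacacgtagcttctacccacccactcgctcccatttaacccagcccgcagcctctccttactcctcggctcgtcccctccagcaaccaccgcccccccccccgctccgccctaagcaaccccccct
Among the other members, 1 of the Nr1d1 windows and the Bhlhe41 window held the E-box, and the other Nr1d1 window and the Cry2 window held the variant. The windows of Per1, Per3, Nr1d2 and Dbp held none of these letters. Of 33469 RefSeq windows of this length, 5.59% held the E-box, 4.07% the variant, 0.828% the D-box and 1.59% the cAMP response element. These matches are descriptions of the letters only.

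Levels are given as FPKM, fragments scaled to transcript length and to the size of the library, which corrects for transcript length, so that genes can be set beside each other. The number of genes at 1 FPKM or more was 11309 to 11723 per library, and relative depth spanned a ratio of 1.94 between libraries. The libraries divided into 2 sets that cut across the groups and for which the labels give no name. Set 1 holds replicates 1 to 3 of the polyP, mutSOD1-ACM and control groups and replicates 1 and 2 of wtSOD1-ACM, and set 2 holds the remaining 2 libraries of each group. The summed level of 6 oligodendrocyte markers was 333 to 632 FPKM in set 1 and 50.8 to 71 FPKM in set 2. The summed level of 6 neuronal markers ran from 671 to 1160 FPKM, whereas that of 5 motor neuron markers, Chat among them, ran only from 1.36 to 3.48 FPKM. The values therefore describe a mixed culture in which transcripts that define motor neurons were near 0.

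Over the 19 libraries, Cry2 was the most abundant member at 46.1 ± 4.09 FPKM (SD), followed by Per1 at 30.9 ± 4.31 FPKM. Bhlhe40 (15.5 ± 6.34 FPKM), Nr1d1 (14.3 ± 1.25 FPKM), Cry1 (12.3 ± 0.551 FPKM) and Per2 (12.2 ± 3.62 FPKM) formed a middle group. Bhlhe40 and Nr1d1 lay within 1 SD of each other, as did Cry1 and Per2, while Nr1d1 exceeded Cry1 by more than the SD of either. Nr1d2 (4.80 ± 0.672 FPKM), Dbp (4.42 ± 0.701 FPKM) and Per3 (3.82 ± 0.800 FPKM) formed the lowest, with neighbours within 1 SD of each other. The members also differed in how much they varied. The coefficient of variation over all libraries was 4.48% for Cry1 and 40.9% for Bhlhe40, with Per2 at 29.7%.

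**Figure D1:**
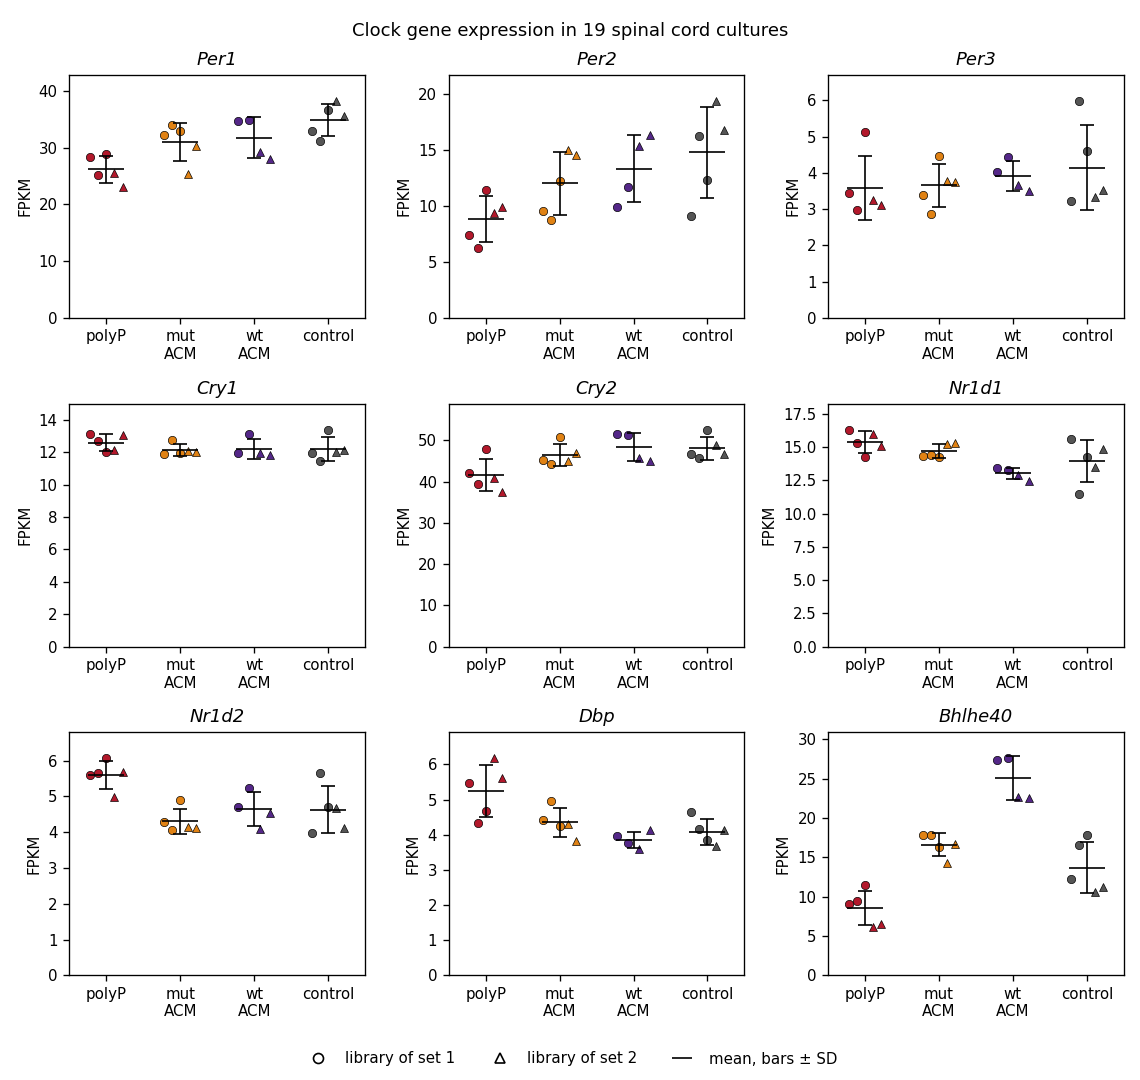
FPKM of the 9 measured clock genes in each of the 19 libraries, by group from left to right, with circles for set 1, triangles for set 2, a line at the group mean and bars of 1 SD. Per1 and Bhlhe40 were lowest with polyP, Bhlhe40 was highest with wtSOD1-ACM, and Cry1 lay between 11.5 and 13.4 FPKM in all libraries.

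After 90 min with polyP, 4 clock genes were called lower and 2 higher. Set against untreated cultures, the repressor genes Per1, Per2, Cry2 and Bhlhe40 were lower and Nr1d2 and Dbp were higher, while Per3, Cry1 and Nr1d1 did not pass the test. With limma, 6 of the 9 members were called at an adjusted p under 0.05, where 31.8% of all tested genes were called (23% higher and 8.77% lower). Of the 9 members, 2 were called higher, near the 23% over all tested genes, and 4 lower, above the 8.77%. Both rises lost the call under the median-of-ratios and equal-sum scalings. The 9 members had a median log2 fold change of -0.16, and all tested genes one of 0.04. In such bulk samples, fewer cells of a type and less RNA per cell cannot be told apart. All fold changes are differences of log2(FPKM + 1), which understates the change of the low members.

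Per1, a Period gene that responds rapidly to outside signals, had 28.4, 25.1, 28.8, 25.5 and 23.0 FPKM in the polyP libraries, against 32.9, 31.2, 36.6, 38.2 and 35.6 FPKM in control libraries. Every polyP library lay below every control library. The means were 26.2 ± 2.42 FPKM with polyP and 34.9 ± 2.84 FPKM in control cultures, a log2 fold change of -0.40 (SE 0.088, limma adjusted p = 0.00212). The difference was -0.28 within set 1 and -0.59 within set 2, with no overlap in either, and the call held under all 10 alternative settings and with any 1 of the 19 libraries left out.

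Per2 encodes a Period protein whose mutations change the length of the daily rhythm. It measured 7.35, 6.23, 11.4, 9.31 and 9.91 FPKM with polyP, against 9.10, 16.3, 12.3, 19.4 and 16.8 FPKM in control cultures. All but 1 of the control libraries exceeded all polyP libraries, and control replicate 1 lay within the polyP range. Mean Per2 was 8.84 ± 2.06 FPKM with polyP and 14.8 ± 4.05 FPKM in control cultures (log2 fold change -0.66, SE 0.20, limma adjusted p = 0.0172). Per2 also differed between the sets, at 10.4 ± 2.75 FPKM in set 1 (n = 11) and 14.6 ± 3.40 FPKM in set 2 (n = 8), and the log2 difference between polyP and control was -0.54 within set 1 and -0.84 within set 2. The call was lost without control replicate 4 (adjusted p = 0.0534), without polyP replicate 2 (0.0538) and in set 1 alone (0.109).

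Per3, a Period gene that the loop can do without in mice, gave 3.44, 2.98, 5.14, 3.25 and 3.10 FPKM with polyP and 3.23, 5.99, 4.61, 3.34 and 3.53 FPKM in control cultures. The groups overlapped across nearly their whole range (log2 fold change -0.16, limma adjusted p = 0.422). The highest values in both groups came from set 1, whose Per3 level was 4.05 ± 0.981 FPKM against 3.49 ± 0.245 FPKM in set 2. The 2 highest control values came from replicates 2 and 3, whose summed level of 6 microglia markers, at 360 and 175 FPKM, was also the highest of that group, as it was for polyP replicate 3 at 112 FPKM. The summed level of 6 oligodendrocyte markers was likewise highest in control replicates 2 and 3, at 627 FPKM each, and in polyP replicate 3, at 610 FPKM. The sum of 6 astrocyte markers was highest in the same libraries, at 428 and 309 FPKM in control replicates 2 and 3 and 328 FPKM in polyP replicate 3. The sum of 6 neuronal markers was lowest there, at 671, 956 and 873 FPKM. The part of these cell types in the Per3 values was not tested.

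The cryptochromes carry much of the repression of CLOCK and BMAL1. Cry2 had 42.1, 39.5, 48.0, 41.0 and 37.6 FPKM with polyP, against 46.7, 45.7, 52.6, 48.9 and 46.7 FPKM in control cultures. All but 1 of the polyP libraries lay below the control range, the exception being replicate 3. Mean Cry2 was 41.6 ± 3.96 FPKM with polyP and 48.1 ± 2.77 FPKM in control cultures (log2 fold change -0.21, limma adjusted p = 0.0214). That call was lost without control replicate 3 (adjusted p = 0.0552), polyP replicate 2 (0.0559) or polyP replicate 5 (0.0622), in set 1 alone (0.193) and in the fit of the 2 groups alone (0.06). Cry1 stood at 12.6 ± 0.517 FPKM with polyP and 12.2 ± 0.719 FPKM in control cultures, a log2 fold change of 0.04 (limma adjusted p = 0.516) that turned to -0.03 and -0.06 under the median-of-ratios and equal-sum scalings.

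The nuclear receptor genes of the stabilising loop gave small positive differences. Nr1d2, which encodes REV-ERBβ, had 5.59, 5.64, 6.06, 4.97 and 5.67 FPKM with polyP, against 3.97, 5.66, 4.70, 4.68 and 4.13 FPKM in control cultures. Without control replicate 2, the highest of its group, the groups would not overlap. The means were 5.59 ± 0.392 FPKM with polyP and 4.63 ± 0.662 FPKM in control cultures (log2 fold change 0.23, limma adjusted p = 0.0382). The log2 difference was 0.24 within set 1 and 0.23 within set 2, and neither set alone gave a call. Nr1d1, which encodes REV-ERBα, averaged 15.4 ± 0.809 FPKM with polyP and 13.9 ± 1.57 FPKM in control cultures (log2 fold change 0.14, limma adjusted p = 0.113), and was called without control replicate 1 (adjusted p = 0.0415). Nr1d1 overlaps the thyroid hormone receptor gene Thra on the other strand, and whether the counting used strand is not given in the sources used here, so its level is uncertain.

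The Nr1d2 call was a fragile one. It was lost without control replicates 1 (adjusted p = 0.0882), 4 (0.0597) or 5 (0.0889) and without polyP replicates 1 (0.0655), 2 (0.0701), 3 (0.0797) or 5 (0.0666). It was also lost when the libraries were scaled by the median of ratios (0.154) or to equal sums (0.281), in set 1 alone (0.143), in set 2 alone (0.0923) and in the fit of the 2 groups alone (0.0889).

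Dbp, the PAR-domain factor that carries the loop's timing to output genes, rose with polyP. It had 5.47, 4.33, 4.67, 6.17 and 5.60 FPKM with polyP, against 4.64, 4.15, 3.84, 3.67 and 4.14 FPKM in control cultures. Replicates 1, 3, 4 and 5 with polyP exceeded all control libraries, and only polyP replicate 2 lay within the control range. Mean Dbp was 5.25 ± 0.742 FPKM with polyP and 4.09 ± 0.370 FPKM in control cultures (log2 fold change 0.29, limma adjusted p = 0.0123). The log2 difference was 0.16 within set 1, with overlap, and 0.49 within set 2, without. The call was lost under the median-of-ratios (adjusted p = 0.0508) and equal-sum (0.0729) scalings, in set 1 alone (0.254) and in the fit of the 2 groups alone (0.0504).

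Bhlhe40 encodes the repressor DEC1, which growth and stress signals can induce. It measured 9.13, 9.42, 11.5, 6.19 and 6.56 FPKM with polyP, against 12.3, 16.5, 17.8, 10.6 and 11.2 FPKM in control cultures. The pooled ranges overlapped, since the lowest control values came from set 2 and the highest polyP value from set 1. Within set 1 and within set 2 the groups did not overlap, with log2 differences of -0.58 and -0.69. Pooled, the means were 8.55 ± 2.18 FPKM with polyP and 13.7 ± 3.27 FPKM in control cultures (log2 fold change -0.62, SE 0.15, limma adjusted p = 0.00468), and the call held in every alternative and with any 1 library left out.

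Under the equal-sum scaling the median of all genes moved by over 0.1 on the log2 scale, to -0.06 against 0.04 as deposited, and the share of calls that were higher with polyP was 45.7% against 72.4%. The 4 falls remained called under both of these scalings, while both rises lost the call. Without polyP replicate 2, 3 of the 9 members were called, and in set 1 alone 2 were. Over all tested genes, 3173 and 2470 were called in these settings, against 3779 with all libraries. Of 4 markers of dividing cells, 2 were called higher with polyP, with a summed level of 222 to 276 FPKM with polyP and 154 to 200 FPKM in control cultures. The sum of 5 endothelial markers was 8.24 to 10.7 FPKM with polyP and 12.2 to 14.9 FPKM in control cultures, and 1 of the 3 tested was called lower. Of 6 oligodendrocyte markers and 5 of fibroblasts and meninges, 1 each was called lower with polyP. For neurons, astrocytes and microglia, 0 of 6 markers each were called. Over all tested genes, 23% were called higher and 8.77% lower, so single calls in such short lists say little. The part of these cell types in the clock gene differences was not tested.

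**Figure D2:**
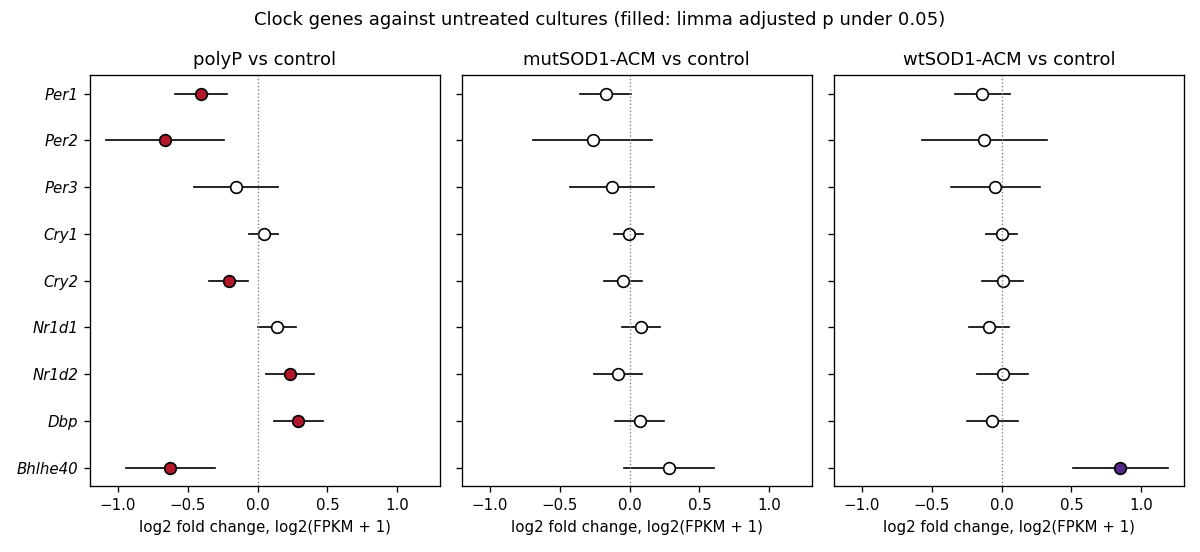
Log2 fold changes of log2(FPKM + 1) for the 9 clock genes with polyP, mutSOD1-ACM and wtSOD1-ACM, each against control, with lines for 95% confidence intervals and filled symbols where limma's adjusted p was under 0.05. With polyP against control, Per2 (-0.66), Bhlhe40 (-0.62) and Per1 (-0.40) lay lowest, and the intervals for mutSOD1-ACM against control all covered 0.

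With conditioned medium of wtSOD1 astrocytes Bhlhe40 was higher than in untreated cultures, and no other clock gene passed the test. Bhlhe40 had 27.4, 27.6, 22.7 and 22.6 FPKM with wtSOD1-ACM, against 12.3, 16.5, 17.8, 10.6 and 11.2 FPKM in control cultures. Every wtSOD1-ACM library lay above every control library. The means were 25.1 ± 2.82 FPKM with wtSOD1-ACM and 13.7 ± 3.27 FPKM in control cultures, a log2 fold change of 0.85 (SE 0.16, 95% interval 0.51 to 1.19, limma adjusted p = 0.0123). Thus 1 of 9 members was called, where 0.631% of all tested genes were. The log2 difference was 0.80 within set 1 and 0.99 within set 2. The call was lost without wtSOD1-ACM replicate 1 (adjusted p = 0.0663) or 2 (0.0677) and in a fit of these 2 groups alone (0.0662), at log2 fold changes of 0.80 to 0.85.

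The other 8 members gave log2 differences between wtSOD1-ACM and control of -0.14 (Per1) to 0.01 (Cry2 and Nr1d2). For Per1 it was 0.06 within set 1, with overlap, and -0.36 within set 2, without. For the abundant members the intervals were narrow. Cry1 averaged 12.2 ± 0.613 FPKM with wtSOD1-ACM and 12.2 ± 0.719 FPKM in control cultures (95% interval of the log2 difference -0.11 to 0.11), and for Cry2 the interval was -0.14 to 0.15. For Per2 it ran from -0.57 to 0.33, so a change as large as that seen with polyP lay outside it only by a little.

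With mutSOD1-ACM against control, limma called 0 of the 9 members, and 0 had an unadjusted p under 0.05, where 0.0168% of all tested genes were called. Bhlhe40 had 17.9, 17.8, 16.4, 14.2 and 16.6 FPKM with mutSOD1-ACM, against 12.3, 16.5, 17.8, 10.6 and 11.2 FPKM in control cultures. Replicates 1 and 2 with mutSOD1-ACM lay just above the highest control library and the others within the control range. The means were 16.6 ± 1.47 FPKM with mutSOD1-ACM and 13.7 ± 3.27 FPKM in control cultures (log2 fold change 0.28, 95% interval -0.04 to 0.61, limma adjusted p = 0.966). The log2 difference was 0.16 within set 1, with overlap, and 0.47 within set 2, without. Per1 averaged 31.0 ± 3.39 FPKM with mutSOD1-ACM and 34.9 ± 2.84 FPKM in control cultures (95% interval of the log2 difference -0.36 to 0.01). Its log2 difference was -0.02 within set 1, with overlap, and -0.40 within set 2, without. Per2 averaged 12.0 ± 2.80 FPKM with mutSOD1-ACM and 14.8 ± 4.05 FPKM in control cultures (95% interval -0.69 to 0.16).

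The 2 conditioned media differed most in Bhlhe40. Every mutSOD1-ACM library, at 14.2 to 17.9 FPKM, lay below every wtSOD1-ACM library, at 22.6 to 27.6 FPKM. The log2 difference was -0.57 (95% interval -0.91 to -0.23), with an unadjusted p of 0.00264 and a limma adjusted p of 0.308. So limma called 0 of the 9 members, with 2 at an unadjusted p under 0.05, where 0.471% of all tested genes were called (0.00841% higher and 0.463% lower). Bhlhe40 was called when the set entered the fit as a term (adjusted p = 0.00237), in a fit of these 2 groups alone (0.0416) and in set 2 alone (0.0119). The remaining member under 0.05 unadjusted was Nr1d1, at 14.3, 14.4, 14.3, 15.3 and 15.3 FPKM with mutSOD1-ACM, against 13.4, 13.3, 12.9 and 12.5 FPKM with wtSOD1-ACM. Its groups did not overlap either, but the difference was small (log2 0.17, limma adjusted p = 0.830).

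Cultures given polyP were also compared with cultures given either conditioned medium. These comparisons share the polyP libraries with the one against control and are therefore not independent of it. Against mutSOD1-ACM, limma called 2 of the 9 members, where 19.7% of all tested genes were called (14.8% higher and 4.9% lower). That count is near the share over all tested genes. Bhlhe40 averaged 8.55 ± 2.18 FPKM with polyP and 16.6 ± 1.47 FPKM with mutSOD1-ACM (log2 fold change -0.91, limma adjusted p = 0.00136), and Nr1d2 averaged 5.59 ± 0.392 FPKM with polyP and 4.30 ± 0.352 FPKM with mutSOD1-ACM (0.31, limma adjusted p = 0.0136). Neither gene's groups overlapped. With the replicate number as a block, Per2 was called as well (log2 fold change -0.40, adjusted p = 0.0255, against 0.186 without the block). The Nr1d2 call was lost under median-of-ratios (0.056) and equal-sum (0.0852) scaling and in set 1 alone (0.136). The same 2 scalings added calls for Per1 (adjusted p = 0.0461 and 0.0347) and Cry2 (0.0404 and 0.0471), both lower with polyP. Leaving out 1 library added a call for Per1 (without mutSOD1-ACM replicate 4, adjusted p = 0.0251), Cry2 (without polyP replicate 3, 0.0215) or Dbp (without mutSOD1-ACM replicate 2, 0.0469, or polyP replicate 2, 0.0364).

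Against wtSOD1-ACM, limma called 5 of the 9 members, where 29.3% of all tested genes were called (21% higher and 8.32% lower). Bhlhe40 averaged 8.55 ± 2.18 FPKM with polyP and 25.1 ± 2.82 FPKM with wtSOD1-ACM, a log2 fold change of -1.47 (limma adjusted p = 9.63e-06). That call held in all 10 alternatives and with any 1 library left out. Dbp was higher with polyP (log2 fold change 0.36, limma adjusted p = 0.00573), as was Nr1d1 (0.22, 0.0193), and Per1 (-0.27, 0.0392) and Cry2 (-0.22, 0.0259) were lower. Dbp kept its call with any 1 library left out and lost it in set 1 alone (0.148). Nr1d1 lost it without wtSOD1-ACM replicate 4 (adjusted p = 0.0634), under median-of-ratios (0.0986), equal-sum (0.127) and quantile (0.0583) scaling and in set 1 alone (0.271).

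The Per1 and Cry2 calls against wtSOD1-ACM depended on several single libraries. Per1 was not called without polyP replicates 2 (adjusted p = 0.0792), 4 (0.0705) or 5 (0.0944) or wtSOD1-ACM replicates 1 (0.114) or 2 (0.118), nor without the filter (0.0505) or in the fit of the 2 groups (0.0506). Cry2 was not called without polyP replicates 2 (0.0619) or 5 (0.0673) or wtSOD1-ACM replicates 1 (0.0793) or 2 (0.0794), nor in set 1 alone (0.116) or in the fit of the 2 groups (0.0609). Conversely, Per2 was called without polyP replicate 3 (0.0389), wtSOD1-ACM replicate 1 (0.0398) or control replicate 1 (0.0401), and Nr1d2 without polyP replicate 4 (0.0446), wtSOD1-ACM replicate 2 (0.0381) or control replicate 2 (0.0311). Per2 was also called under median-of-ratios (0.0374) and equal-sum (0.0459) scaling, with the set as a term (0.0124) and in set 2 alone (0.000111). Nr1d2 was also called after quantile normalization (0.0155) and with the set as a term (0.0283). The number of members called fell to 3 without polyP replicate 2 or polyP replicate 5. Calls over all tested genes fell as well, from 3488 to 2872 and 3086.

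A ratio of 2 genes within a library does not depend on how the library was scaled, and 4 such ratios were compared in all 6 comparisons. The pairs were chosen after the values had been seen. Bhlhe40 over Per1, both rapid responders, was 0.321, 0.375, 0.398, 0.243 and 0.285 with polyP and 0.556, 0.524, 0.496, 0.561 and 0.549 with mutSOD1-ACM. It was 0.789, 0.791, 0.777 and 0.804 with wtSOD1-ACM and 0.374, 0.530, 0.487, 0.276 and 0.315 in control cultures. The ratio was nearly constant within wtSOD1-ACM and within mutSOD1-ACM, across both sets, and the 2 ranges were apart. Between mutSOD1-ACM and wtSOD1-ACM the log2 ratio differed by -0.56, and an exact two-sided permutation test gave p = 0.0159, the smallest that 5 against 4 libraries allow. Between wtSOD1-ACM and control it differed by 1.04, again without overlap and with the same exact permutation p. Within sets the difference was -0.59 in set 1 and -0.51 in set 2 for mutSOD1-ACM against wtSOD1-ACM, and 0.79 in set 1 and 1.42 in set 2 for wtSOD1-ACM against control. For mutSOD1-ACM against control it was 0.20 in set 1 and 0.91 in set 2. The ratio also did not overlap between polyP and mutSOD1-ACM (-0.75, exact permutation p = 0.00794) or between polyP and wtSOD1-ACM (-1.31, 0.0159). Over the 24 tests, the adjusted value was 0.0952 for each of these differences, and no ratio passed 0.05 after adjustment. An exact p of 0.0159 cannot pass over 24 tests unless many others are small too, so full separation of 1 comparison was not enough.

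The other ratios compared members of 1 family. Cry2 over Cry1 was 3.31 ± 0.425 with polyP and 3.94 ± 0.0851 in control cultures (SD, n = 5 each), with an exact permutation p of 0.0397, adjusted 0.119. Per1 over Per2 was 3.10 ± 0.793 with polyP and 2.52 ± 0.743 in control cultures (exact permutation p = 0.230). Nr1d1 over Nr1d2 was 2.77 ± 0.320 with polyP and 3.45 ± 0.337 with mutSOD1-ACM (exact permutation p = 0.0238, adjusted 0.0952). All of these ranges overlapped.

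**Figure D3:**
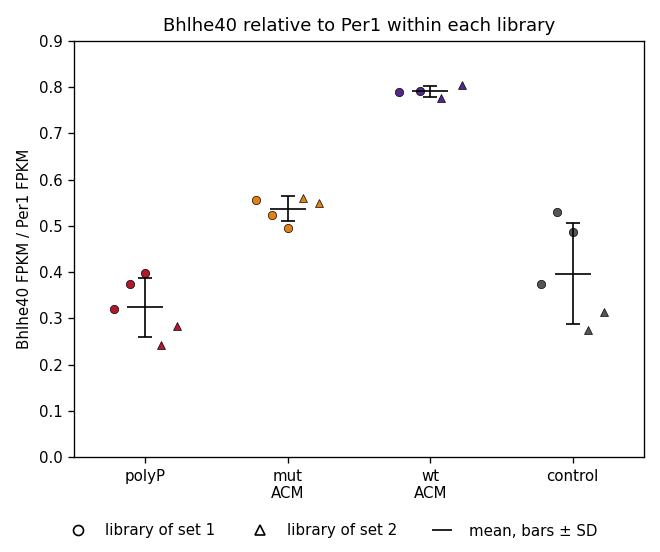
Ratio of Bhlhe40 to Per1 FPKM in each library, by group from left to right, with circles for set 1, triangles for set 2, a line at the group mean and bars of 1 SD. The wtSOD1-ACM libraries lay at 0.777 to 0.804 and the mutSOD1-ACM libraries at 0.496 to 0.561, while polyP (0.243 to 0.398) and control (0.276 to 0.530) spread more widely.

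The activators that the members repress were measured as well. Of the positive arm and its ROR receptors, Clock, Arntl, Arntl2 and Rorb were tested, and limma called 0 of the 4 in each of the 6 comparisons. The share called over all tested genes ran from 0.0168% for mutSOD1-ACM against control to 31.8% for polyP against control. With so few genes, 0 of 4 is not far from even the highest of these shares. With polyP, 2 had an unadjusted p under 0.05 against control and 1 against wtSOD1-ACM. Clock, the DNA-binding partner of BMAL1, averaged 5.71 ± 0.817 FPKM with polyP and 6.93 ± 0.841 FPKM in control cultures (log2 fold change -0.24, limma adjusted p = 0.0849). Arntl, which encodes BMAL1, averaged 9.54 ± 0.818 FPKM with polyP and 10.7 ± 0.760 FPKM in control cultures (-0.15, limma adjusted p = 0.231). With the set as a term, 2 of the 4 were called lower with polyP. In that setting 6194 of the 11887 tested genes were called for polyP against control, 2308 of them lower. The median log2 fold change of the 4 was -0.20 with polyP against control, where it was 0.04 over all genes. Of the other PAR-domain factors and their repressor, Tef and Nfil3 were tested, and Nfil3, the repressor that competes with DBP, was lower with polyP than with wtSOD1-ACM (28.2 ± 0.555 FPKM with polyP, 34.8 ± 2.39 FPKM with wtSOD1-ACM, limma adjusted p = 0.00823).

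Among 20 tested modifiers and partners of clock proteins, 7 were higher and 0 lower with polyP than in control cultures, with a median log2 fold change of 0.15, where 23% of all tested genes were higher and 8.77% lower. They included Nono, an RNA-binding partner of PER (282 ± 13.9 FPKM with polyP, 219.5 ± 11.4 FPKM in control cultures, log2 fold change 0.36, limma adjusted p = 0.00017), and the casein kinase 2 subunit genes Csnk2b (0.32, 0.00105) and Csnk2a1 (0.31, 0.00762). Tipin, a partner of TIMELESS that also acts in DNA replication, rose by 0.39 (limma adjusted p = 0.00194). Under the median-of-ratios and equal-sum scalings, 3 were higher and 1 lower, and Csnk2a1 lost its call (adjusted p = 0.0593 and 0.0826). Over all genes, 1748 of 11880 tested were higher and 1561 lower under median-of-ratios, and 1404 of 11890 higher and 1669 lower under equal sums. The counts of modifiers under these scalings are near those shares. Noct, which encodes the rhythmic protein nocturnin, followed the order of Bhlhe40, at 23.9 ± 0.713 FPKM with polyP, 31.3 ± 3.24 FPKM with mutSOD1-ACM, 39.0 ± 5.26 FPKM with wtSOD1-ACM and 28.8 ± 4.15 FPKM in control cultures. Its differences between polyP and wtSOD1-ACM (log2 -0.67, limma adjusted p = 0.000165) and between polyP and mutSOD1-ACM (-0.37, 0.0121) were called.

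Per1 is also a target of cAMP signalling through CREB and of glucocorticoids, and Bhlhe40 of hypoxia, so lists for these inputs were examined. Their counts are set against the same 23% of all tested genes higher and 8.77% lower with polyP. Of 13 tested genes of the cAMP and CREB route, 1 was higher and 1 lower with polyP than in control cultures. The lower one was Nr4a1, an immediate early nuclear receptor gene that CREB activates (36.6 ± 5.17 FPKM with polyP, 62.5 ± 8.15 FPKM in control cultures, log2 fold change -0.76, limma adjusted p = 0.000861), and the higher one was Prkaca, a catalytic subunit of protein kinase A (0.23, 0.00555). Of 13 tested glucocorticoid-responsive genes, 2 were higher, Mt2A (0.54) and Tsc22d3 (0.29), and 2 lower, Klf9 (-0.35) and Map3k6 (-0.34). Map3k6 averaged 0.452 FPKM with polyP and 0.842 FPKM in control cultures, both under the filter of 1 FPKM, and its call was lost after quantile normalization (adjusted p = 0.153) and in a fit of these 2 groups alone (0.0747). The Tsc22d3 call was lost under median-of-ratios (0.0736) and equal-sum (0.109) scaling, in set 1 alone (0.169) and in the fit of 2 groups (0.0682). Of 16 tested hypoxia targets, 4 were higher, among them Ddit4 (0.73) and Egln3 (0.63), and 6 lower, among them Slc2a1 (-0.62) and P4ha1 (-0.45). The split by direction depended on the setting. Under equal sums the cAMP and CREB list had 0 higher and 3 lower, with Prkaca no longer called (adjusted p = 0.0666), and in set 1 alone the glucocorticoid list had 2 higher and 0 lower. Over all genes, 1404 of 11890 tested were higher and 1669 lower under equal sums, and 1819 of 11887 higher and 651 lower in set 1 alone.

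The same lists were counted for polyP against the conditioned media. Over all tested genes, 14.8% were higher and 4.9% lower against mutSOD1-ACM, and 21% higher and 8.32% lower against wtSOD1-ACM. Of the 20 modifiers and partners, 4 were higher and 1 lower with polyP than with mutSOD1-ACM, and 6 higher and 1 lower than with wtSOD1-ACM, the lower one being Noct in both. Nr4a1 was lower with polyP than with mutSOD1-ACM (log2 fold change -0.58, limma adjusted p = 0.0113) and than with wtSOD1-ACM (-0.52, 0.0174). Both Nr4a1 calls were lost in set 2 alone (0.136 and 0.158). Of the 13 glucocorticoid-responsive genes, 0 were higher and 2 lower against mutSOD1-ACM, and 1 higher and 4 lower against wtSOD1-ACM. Errfi1, a feedback inhibitor of the EGF receptor, was among the lower in both (-0.30, limma adjusted p = 0.049 and -0.41, 0.00861). Its call against mutSOD1-ACM was lost without the filter (0.0654), and both its calls were lost in set 1 alone (0.129 and 0.0816). Map3k6, among the 4 lower against wtSOD1-ACM, averaged 0.452 FPKM with polyP and 1.22 FPKM with wtSOD1-ACM. Only wtSOD1-ACM had a mean of this gene above the filter of 1 FPKM, so that count rests in part on a gene near the filter. Of the 16 hypoxia targets, 4 were higher and 4 lower against mutSOD1-ACM, and 4 higher and 5 lower against wtSOD1-ACM. The lower ones included the collagen prolyl hydroxylase gene P4ha2 in both (-0.44, limma adjusted p = 0.0044 and -0.58, 0.00043). Both P4ha2 calls were lost in set 1 alone (0.167 and 0.0618).

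With wtSOD1-ACM against control, the only call in these lists was Cebpd, a C/EBP factor gene, at 17.2 ± 6.37 FPKM with wtSOD1-ACM and 5.56 ± 1.83 FPKM in control cultures (log2 fold change 1.45, limma adjusted p = 0.00484), and that call was lost in a fit of these 2 groups alone (0.0661). Cebpd was also lower with mutSOD1-ACM than with wtSOD1-ACM (-1.67, limma adjusted p = 0.00119). With mutSOD1-ACM against control, limma called 0 genes of the 6 lists, and 1, a hypoxia target, had an unadjusted p under 0.05.

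The genes whose profile over the 19 libraries was nearest to that of Bhlhe40 were sought by the root mean square difference of centred log2(FPKM + 1). Bhlhe40 itself deviated from its own mean by 0.56 on this measure. Among the nearest were Runx1 (0.20), Pmepa1 (0.22), Sdc4 (0.22) and Kctd11 (0.24). Runx1, a transcription factor gene, averaged 4.22 FPKM with polyP, 6.81 FPKM with mutSOD1-ACM, 12.4 FPKM with wtSOD1-ACM and 7.00 FPKM in control cultures. Pmepa1, a gene that TGF-beta signalling induces, averaged 51.1 FPKM with polyP, 98.2 FPKM with mutSOD1-ACM, 114 FPKM with wtSOD1-ACM and 66.3 FPKM in control cultures. Both had, as Bhlhe40 had, the lowest group mean with polyP and the highest with wtSOD1-ACM. Because they were chosen for likeness to Bhlhe40 over these same libraries, the shared order follows from the choice and is no separate result.

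**Figure D4:**
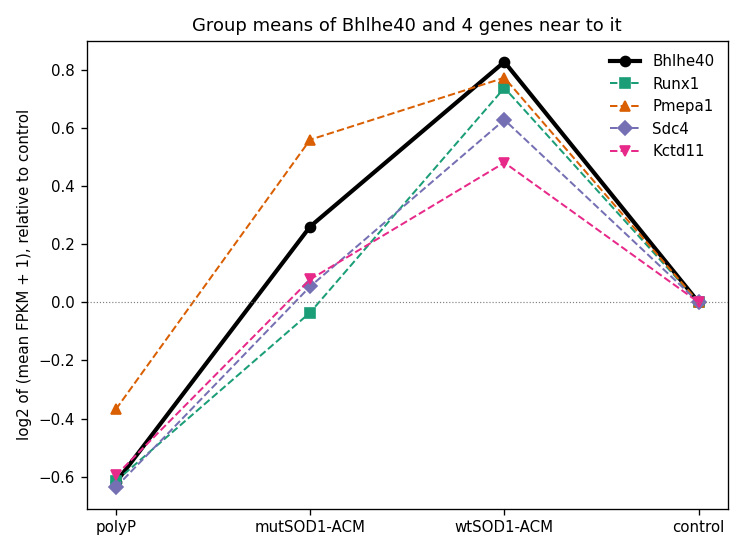
Log2 of the group mean FPKM + 1, relative to control, for Bhlhe40 (black) and 4 genes with a near profile, by group from left to right, with control at 0. In all of them the group mean was lowest with polyP and highest with wtSOD1-ACM. This order follows from choosing the genes by likeness to Bhlhe40.

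For Per1, whose own deviation was 0.19, the nearest were Usp36 (0.093), Dscaml1 (0.12), Pim3 (0.12), Trim66 (0.12) and Socs5 (0.12). Usp36, a deubiquitinase gene, averaged 24.0 FPKM with polyP, 27.1 FPKM with mutSOD1-ACM, 30.1 FPKM with wtSOD1-ACM and 31.1 FPKM in control cultures. Because Per1 varied little, genes with flat profiles also lie near it, and only Usp36 was nearer than 0.1.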

How the data were processed

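The authors deposited 1 table of FPKM values per gene and library, per the file headers. The aligner HISAT and the rat build rn6 are named in the submitters' processing notes. Not given in the sources used here are the aligner's version, the tool behind the FPKM, the annotation and the use of strand in counting. Total fragments are unknown, so no counting interval is given. Relative depth was estimated from 131 rarely detected genes, of whose 837 values 93.7% were whole multiples of 1 fragment within 0.1.

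FPKM are not counts, so log2(FPKM + 1) was fitted with limma 3.58.1 in R 4.3.3, with statmod 1.5.0, with all 4 groups in 1 model and trended, robust moderation. A gene was tested if it reached 1 FPKM in at least 4 of 19 libraries. P-values are two-sided and adjusted by the Benjamini-Hochberg method over all 11887 genes, with 0.05 as threshold and intervals at 95%. In simulated data for polyP against control with 11887 genes, 75 of 100 changes of 0.5 and 94 of 100 of 1 on the log2 scale were recovered, with 8 false calls. The simulation drew independent normal noise without the library sets. It changed only genes above a low level, and far fewer than were called in the data. Its rates therefore check the fit and are not the recovery or error rates of these comparisons. Ratios were tested with exact permutation tests in scipy 1.17.1.

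Replicates are separate libraries, from 4 to 5 independent cultures per condition per the labels' protocols, while the series design speaks of quadruplicates. P-values measure the spread between these libraries. Same-numbered libraries of polyP and mutSOD1-ACM deviated together in every pair (r = 0.688 to 0.764). In each pair the same-numbered mutSOD1-ACM library was also the one that correlated best. Both libraries of a pair lie in the same set, which by itself can raise r, so the check does not establish a pairing. The numbers were taken as pairs there from this check and not from the labels, and the blocked value stands beside that comparison.

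The members and gene lists were chosen with earlier results of these data known. Named genes are all members, at most 4 called genes with the smallest p per list and comparison, and the 5 nearest profiles to Per1 and to Bhlhe40, of which 1 gene is not reported here.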

Additional observations from a re-analysis of the deposited data

Results flagged for a closer look

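Among 36 sets of values (9 genes in 4 groups), 4 held 1 library far from the others of its group, where chance gives about 1 in 20. In the polyP group, Per3 was 5.14 FPKM in replicate 3 and 2.98 to 3.44 FPKM in the others. Cry1 was 12.78 FPKM in mutSOD1-ACM replicate 2, against 11.88 to 12.11 FPKM in the others of that group, and 13.13 FPKM in wtSOD1-ACM replicate 2, against 11.83 to 11.96 FPKM in the others. For Nr1d2, mutSOD1-ACM replicate 3 had 4.91 FPKM and the others 4.05 to 4.29 FPKM. None of these genes was called in a comparison of mutSOD1-ACM or wtSOD1-ACM with control.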

How the results depend on the processing

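The alternatives were a pseudocount of 0.1, no filter, 3 scalings, the replicate block, the set as a term, each set alone, only the 2 groups compared, and each library left out. The alternatives for the ratios were chosen after seeing the data. For polyP against control, 6 members were called, but 2 in set 1 alone, 3 in the fit of 2 groups, and 3 to 6 with 1 library left out. Of all 11887 tested genes 3779 were called, but 2470 in set 1 alone and 2940 in the fit of 2 groups. For wtSOD1-ACM against control the count of members was 1, but 0 in the fit of 2 groups and 0 to 1 with 1 library left out. Over all tested genes it was 75, but 33 in the fit of 2 groups. For mutSOD1-ACM against wtSOD1-ACM the count of members was 0. It was 1 with the replicate block, with the set as a term, in set 2 alone and in the fit of 2 groups. Over all tested genes it was 56, and in these settings 96, 99, 74 and 41. For polyP against mutSOD1-ACM the count of members was 2, but 6 with the set as a term, 1 in set 1 alone and 5 in set 2 alone. Over all tested genes it was 2342, and in these settings 4287, 116 and 4529, so it moved in the same direction. For polyP against wtSOD1-ACM the count of members was 5, but 2 in set 1 alone, 3 in the fit of 2 groups, and 3 to 6 with 1 library left out. Over all tested genes it was 3488, but 1321 in set 1 alone and 3549 in the fit of 2 groups. A set alone has fewer libraries, and the other causes were not tested.

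Differences that changed sign were all uncalled and small. With polyP against control, Cry1 was -0.027 under median-of-ratios and -0.062 under equal-sum scaling. With mutSOD1-ACM against control, Cry1 was 0.009 after quantile normalization and Per3 0.105 in set 2 alone. With wtSOD1-ACM against control, equal sums gave -0.01 for Cry1, -0.004 for Cry2 and -0.003 for Nr1d2, quantile normalization -0.008 for Cry2, set 1 alone 0.055 for Per1, and set 2 alone 0.047 for Per3, -0.022 for Cry1, -0.07 for Cry2 and -0.025 for Nr1d2. With mutSOD1-ACM against wtSOD1-ACM, Cry1 was 0.001 after quantile normalization, and set 2 alone gave 0.059 for Per3, 0.019 for Cry1 and 0.018 for Cry2. With polyP against mutSOD1-ACM, median-of-ratios gave -0.008 for Cry1 and 0 for Nr1d1, equal sums -0.02 for Cry1 and -0.012 for Nr1d1, quantile normalization 0.001 for Per3, and set 1 alone 0.075 for Per3. With polyP against wtSOD1-ACM, Cry1 was -0.028 under median-of-ratios and -0.052 under equal sums. For the log2 ratios, Per1 over Per2 was 0.24 in set 1 alone (wtSOD1-ACM against control) and -0.12 in set 2 alone (mutSOD1-ACM against control), and Cry2 over Cry1 was -0.047 in set 2 alone (wtSOD1-ACM against control).

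With 1 library left out, sign changes occurred within these ranges. For mutSOD1-ACM against control they were Cry1 -0.025 to 0.026 and Per1 over Per2 -0.032 to 0.265. For wtSOD1-ACM against control they were Cry1 -0.031 to 0.033, Cry2 -0.022 to 0.041, Nr1d2 -0.042 to 0.07, Per3 -0.107 to 0.074, Cry2 over Cry1 -0.034 to 0.025 and Per1 over Per2 -0.189 to 0.153. For mutSOD1-ACM against wtSOD1-ACM they were Cry1 -0.023 to 0.026, Per1 -0.089 to 0.033 and Per1 over Per2 -0.045 to 0.297. Per3 ran from -0.142 to 0.029 for polyP against mutSOD1-ACM, and Nr1d1 over Nr1d2 from -0.085 to 0.028 for polyP against wtSOD1-ACM.

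Outside polyP against mutSOD1-ACM the replicate numbers were not taken as pairs. Same-numbered r ran from 0.068 to 0.688 for polyP against control and from 0.078 to 0.791 for mutSOD1-ACM against control, and with wtSOD1-ACM it was negative for replicate 3 in each comparison. With the replicate block, Cry2 (-0.006) and Nr1d2 (-0.005) changed sign for wtSOD1-ACM against control. The block added a call of Bhlhe40 for mutSOD1-ACM against wtSOD1-ACM (-0.52, adjusted p = 0.0475), and of Per2 (-0.60, 0.00268) and Nr1d2 (0.24, 0.033) for polyP against wtSOD1-ACM. It ended no call among the members.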
